A study of Mus musculus with 8 samples.

Results

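The 35 genes described here act in mitosis and cytokinesis, the division of the chromosomes and then of the cell. They were taken from a fixed list of mitotic kinases, cyclins, kinetochore, spindle and cytokinesis genes, and all 35 were found among the 37620 gene IDs counted in every library. Each of the 35 had counts in all 8 libraries and passed the filter on low counts, so none was left out. RNA-seq after removal of ribosomal RNA was done on erythroid progenitors, the cells that give rise to erythrocytes, purified by magnetic sorting from fetal livers of C57BL/6 mice at E14.5. All groups were grown for 24 h in medium with erythropoietin, the hormone that drives red cell production. The Bloodlinc knockdown had 1 library with a control hairpin (Bloodlinc_shCTL) and 1 with each of 2 hairpins against Bloodlinc, a long noncoding RNA (Bloodlinc_sh1 and Bloodlinc_sh2). The hnRNPU knockdown had 1 library with its own control hairpin (hnRNPU_shCTL) and 1 with each of 2 hairpins against Hnrnpu, the gene of a nuclear RNA-binding protein (hnRNPU_sh1 and hnRNPU_sh2). Overexpression had 1 empty vector library and 1 Bloodlinc vector library. The labels do not say whether the libraries came from separate embryos or cultures. A p-value of the main fit therefore reflects no more than how far the 2 hairpin libraries of a target differ, which may be technical. Differences between the control libraries do not enter that spread.

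Early erythroid cells divide rapidly while they mature, and they leave the cell cycle before the nucleus is expelled. Genes of mitosis are transcribed mainly in G2 and M phase, when cyclin-dependent kinase 1 with its cyclins starts mitosis, the spindle and kinetochores part the chromosomes, and the anaphase-promoting complex then marks cyclins and securin for destruction. Many of these genes are repressed in resting cells by the DREAM complex and switched on in dividing cells by MuvB with B-MYB and FOXM1, through a promoter element called the cell cycle genes homology region (CHR), often beside CCAAT boxes bound by NF-Y. In bulk RNA, a lower level of such a gene through fewer cells in mitosis cannot be told apart from less of its RNA per cell.

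The libraries were unequal. Counts in genes ranged from 23682993 to 34540691 in the other 6, but were 2931627 and 2612916 with hnRNPU hairpins 1 and 2, where 89.7% and 86.6% of uniquely placed counts fell outside genes against 21.7% to 30.1% elsewhere. In those 2 libraries 2 unannotated gene IDs took 32.6% and 22.6% of gene counts, against at most 0.122% elsewhere. Within each set the knockdown targets followed their labels. Bloodlinc read 4.46 CPM (counts scaled to a common library total with TMM factors) with its control hairpin and 2.19 and 1.75 CPM with its hairpins, and 1.26 CPM with the empty vector against 5.46 CPM with the Bloodlinc vector. Hnrnpu read 588 CPM with its control hairpin and 325 and 373 CPM with its hairpins, but 290 CPM with the Bloodlinc control hairpin and 294 and 214 CPM with the Bloodlinc hairpins, so the hnRNPU hairpin libraries held more Hnrnpu than any library of the Bloodlinc set. Bloodlinc itself read 4.35 CPM in the hnRNPU control library and 1.18 and 3.15 CPM with hnRNPU hairpins 1 and 2. In those 2 hairpin libraries 3 counts equal 1.77 and 1.18 CPM, so the value with hairpin 1 rests on fewer than 3 counts. These values are too near the floor to compare. Erythroid markers were present in every library, with none of 14 at 0 and a summed level between 24973 and 108805 CPM, while 8 hepatocyte markers summed to 12.6 CPM or less.

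The summed level of the 35 genes differed more than 4-fold between libraries. It was 17107 CPM with the Bloodlinc control hairpin and 10557 and 9414 CPM with Bloodlinc hairpins 1 and 2. It was 11873 CPM with the hnRNPU control hairpin and 4158 and 6344 CPM with hnRNPU hairpins 1 and 2. The empty vector and Bloodlinc vector libraries stood close together at 5269 and 5672 CPM. Both knockdowns therefore lay below their own control library, but the empty vector, itself a control, lay below both Bloodlinc hairpin libraries. The Bloodlinc control library was the highest of all 8 for 27 of the 35 genes and the hnRNPU control library for 7, while hnRNPU hairpin 1 was the lowest for 31. The highest library exceeded the lowest by 2.37-fold (Bub1b) to 10.9-fold (Ccnb1), with a median of 4.8-fold.

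**Figure D1:**
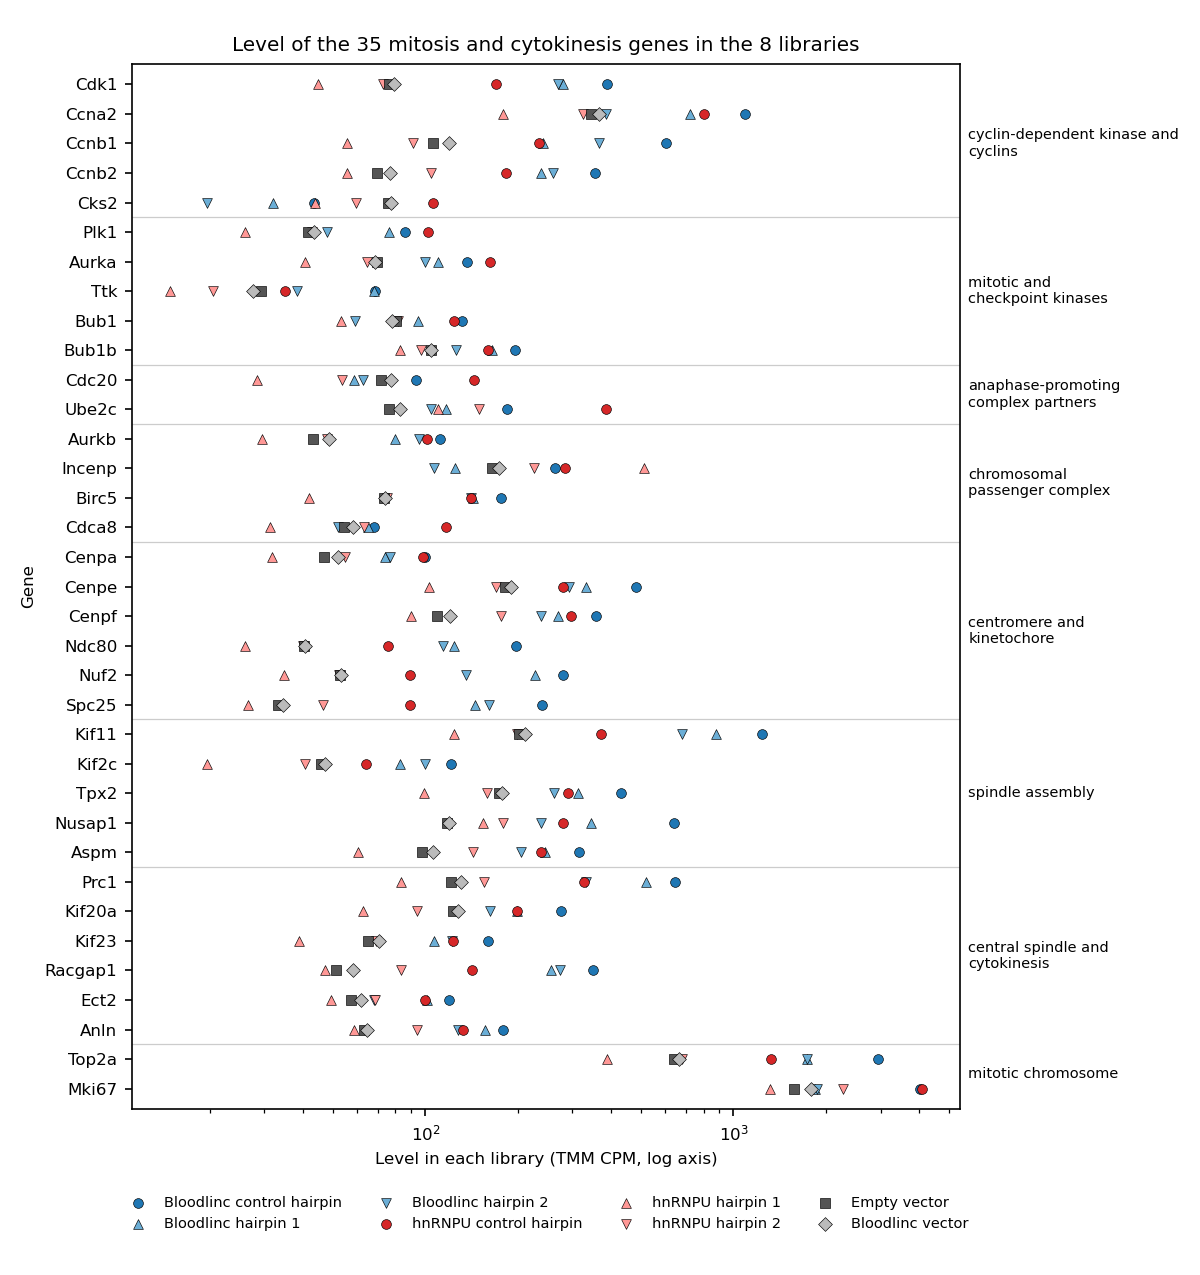
Level of each of the 35 genes (rows, grouped by role) in the 8 libraries, in TMM CPM on a log axis, with 1 point per library. The Bloodlinc control hairpin (blue circles) stood highest for 27 genes and hnRNPU hairpin 1 (pink upward triangles) lowest for 31, while Incenp was highest with hnRNPU hairpin 1.

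Per length, the most abundant of the genes in the 3 control libraries was Mki67, the gene of the proliferation antigen Ki-67 that coats mitotic chromosomes. Its level was 401, 408 and 156 RPKM (CPM divided by exon length in kilobases) with the Bloodlinc control hairpin, the hnRNPU control hairpin and the empty vector. By the median of the 3 controls it was followed by Ccna2 at 197 RPKM, Top2a at 147 RPKM, Ccnb2 at 119 RPKM and Cks2 at 109 RPKM. The spread between controls was wider than most steps of this order. Cks2, for example, read 62.9, 153 and 109 RPKM in the same 3 libraries, and Top2a read 327, 147 and 71.0 RPKM, so the order of neighbours was not resolved. The lowest medians were those of the checkpoint kinase gene Ttk at 7.12 RPKM and the kinetochore gene Ndc80 at 11.6 RPKM.

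The promoters of these genes share sequence features that the choice of genes did not use. Of the 35 genes, 30 had entries in the RefSeq promoter table (GRCm38.p6), with 32 windows of 300 bases that run from 250 bases before to 50 bases after the annotated start. Ccna2, Aurkb, Kif20a, Tpx2 and Incenp had none there. The CHR was searched on both strands as TTTGAA. The form TTTAAA, which is its own reverse complement, was also taken as a CHR. The CCAAT box was searched on both strands as CCAAT. Neither motif contains the other, but they can share an end base, and such matches were not left out. The CHR was found in 28 of 32 windows (87.5%), against 27.6% of all 32851 windows of the table. The CCAAT box was found in 26 of 32 (81.2%), against 37.4% of all windows, and both motifs together in 24 of 32 (75%), against 10.7%. Within the 100 bases before the start, both were found in 9 of 32 windows (28.1%), against 1.77% of all windows. These matches are letters in a window and do not show that a factor binds there. Bub1, Cks2, Nusap1 and Nuf2 had no CHR match in these windows.

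**Figure D2:**
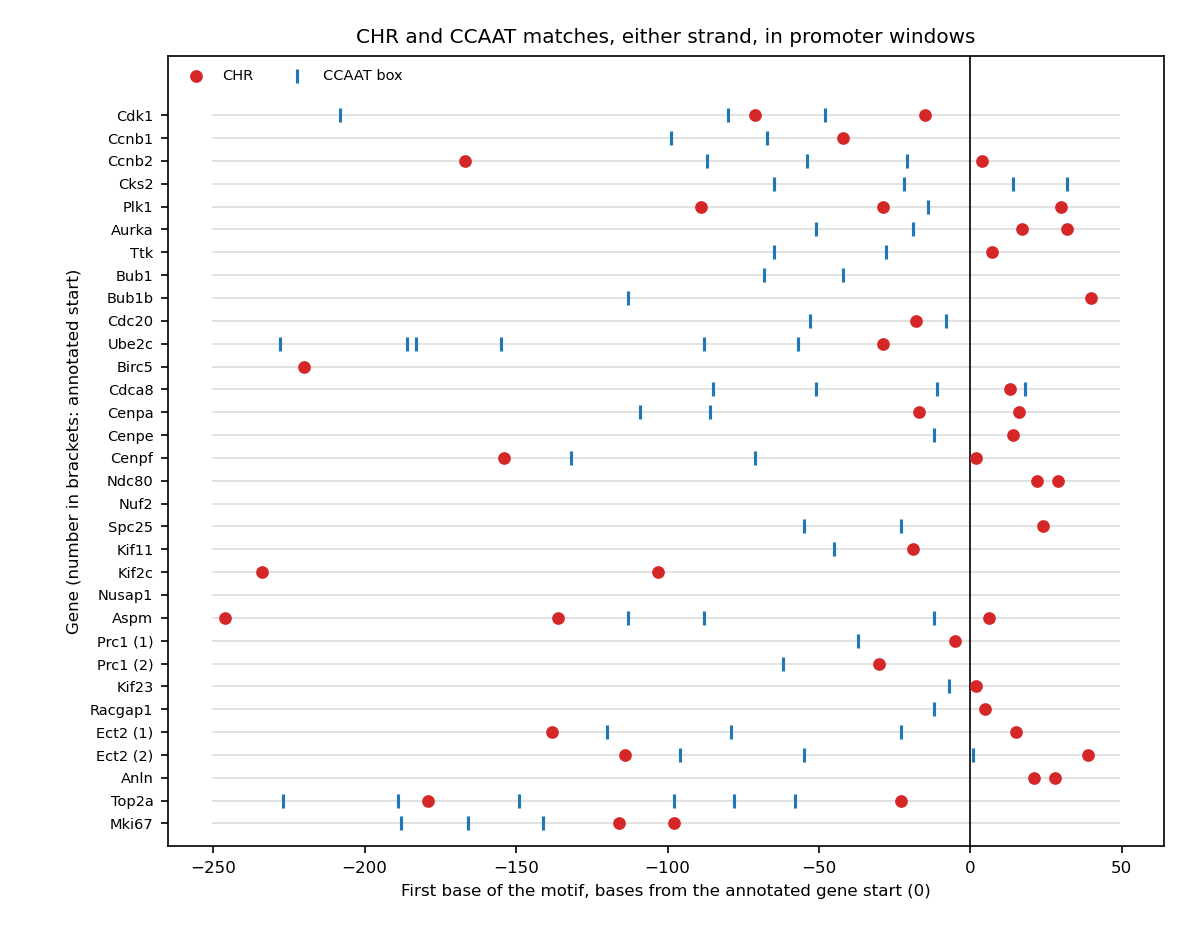
Position of each CHR match (red points) and CCAAT match (blue bars) on either strand in the 32 promoter windows of 30 genes, in bases from the annotated start at 0. CCAAT matches gather between about 100 bases before the start and the start itself, and 28 of 32 windows hold a CHR match.

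To show how the 2 motifs lie beside each other, 100 bases are printed for 5 of these 9 genes. To show no transcribed base, each stretch ends before the start in both RefSeq and GENCODE, and only the 5 genes with both motifs whole in that stretch were kept. Ccnb1, Cenpa, Prc1 and Ube2c are not printed. Each runs 5′ to 3′ on the strand of its gene, from RefSeq (GRCm38.p6), and capitals mark the CHR and the CCAAT box on either strand, so that the box also appears in its reverse complement. The order is Cdk1 (chr10:69352939-69353038, minus strand), Cdc20 (chr4:118437353-118437452, minus strand), Plk1 (chr7:122159335-122159434, plus strand), Kif11 (chr19:37376282-37376381, plus strand) and Top2a (chr11:99024190-99024289, minus strand).
Cdk1: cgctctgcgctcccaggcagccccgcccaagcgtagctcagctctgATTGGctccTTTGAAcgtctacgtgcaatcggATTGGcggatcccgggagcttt
Cdc20: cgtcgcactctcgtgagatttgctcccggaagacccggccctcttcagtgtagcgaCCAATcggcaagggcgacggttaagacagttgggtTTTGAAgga
Plk1: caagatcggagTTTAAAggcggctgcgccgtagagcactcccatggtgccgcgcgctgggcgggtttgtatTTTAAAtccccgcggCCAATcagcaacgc
Kif11: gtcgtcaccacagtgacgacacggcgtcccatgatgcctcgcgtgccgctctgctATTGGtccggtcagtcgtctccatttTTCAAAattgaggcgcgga
Top2a: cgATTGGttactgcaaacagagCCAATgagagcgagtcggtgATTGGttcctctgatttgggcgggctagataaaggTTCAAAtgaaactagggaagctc
Within the printed stretches, the nearest CHR and CCAAT box of Cdc20 and of Top2a were 30 bases apart, in Kif11 21 bases, in Plk1 9 bases and in Cdk1 4 bases. In these stretches the arrangement therefore varied among genes that stood below their control together. The stretches of Cdk1 and Cdc20 end 26 and 9 bases before the RefSeq start. In those bases Cdk1 had a further CHR. Cdc20 had a further CCAAT box there, nearer to its CHR than the printed box, so its spacing depends on where the stretch ends. The 26 genes with a CHR in the window had a median log2 fold change of −0.50 in the Bloodlinc knockdown and −1.21 in the hnRNPU knockdown, and the 4 without one had medians of −0.76 and −0.95.

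With Bloodlinc hairpins, all 35 genes lay below the Bloodlinc control library, and they did so with both hairpins. The median log2 fold change was −0.58, with a range from −1.19 (Incenp) to −0.21 (Cdca8), against a median of 0.06 over all genes tested. No gene passed edgeR's quasi-likelihood test with Benjamini-Hochberg adjustment over 15355 genes (adjusted p = 1 for each of the 35). An unadjusted p under 0.05 was reached by 2 of the 35, Incenp and Nusap1, both lower. Of all 15355 genes, 194 reached it lower and 419 higher. DESeq2 and limma-voom also called 0 of the 35. Among all genes, 0.0261% were called lower and 0.0977% higher, and in 30.7% both hairpin libraries lay below the control library that they share. The counts differed with the control library used. Both Bloodlinc hairpin libraries lay within the range of the 3 control libraries for 30 of the 35 genes and below all 3 for Cks2, Cdc20 and Incenp. Against the hnRNPU control library, 19 of the 35 lay lower with a median of −0.08. Erythroid markers lay lower along with the mitotic genes: 14 of 14 were below 0 in the Bloodlinc knockdown with a median of −0.83, 13 of them with both hairpins, and none passed in edgeR, with 2 at an unadjusted p under 0.05. In the hnRNPU knockdown the same 14 markers split, with 8 lower and 6 higher (median −0.31). With hnRNPU hairpin 1, 7 lay lower and 7 higher, and with hairpin 2, 12 lay lower and 2 higher. The part of these markers in the mitotic genes' values was not tested.

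With hnRNPU hairpins, 34 of the 35 genes lay below the hnRNPU control library with both hairpins, and Incenp was the exception. The median log2 fold change was −1.19, with a range from −1.81 (Cdc20) to 0.37 (Incenp), against −0.09 over all genes tested. No gene passed in edgeR, DESeq2 or limma-voom, and the smallest edgeR adjusted p was 0.0638, for Cdc20. In edgeR 25 of the 35 had an unadjusted p under 0.05, all lower, against 4.86% of all genes with that p and direction. In either direction, the number of the 35 was 17 in DESeq2 and 24 in limma-voom. In edgeR it was 13 under upper quartile scaling, 14 with DESeq2's size factors and 13 with a filter of 5 CPM in 2 libraries. It was 13 after thinning to the shallowest library and 7 in the fit of the 3 hnRNPU libraries alone. Over all genes that p was reached by 1518 of 15355 in the main fit, 1241 in DESeq2 and 1688 in limma-voom. In the same order, the edgeR settings gave 1469 and 1480 of 15355, 996 of 9459, 955 of 10564 and 1215 of 9865. Among all genes, 0.300% were called lower and 0.580% higher, and in 42.3% both hairpin libraries lay below their shared control. Hairpin 1 lay below hairpin 2 for 34 of the 35 genes, with medians of −1.66 and −0.86 against the control library. Fewer of the 35 genes, and also fewer of all genes, had an unadjusted p under 0.05 with hairpin 1 left out than with hairpin 2 left out. With the Bloodlinc control library in place of the hnRNPU control, 21 of the 35 were called lower. Of all 15355 genes, 1033 were then called lower and 1307 higher, or 15.2% in either direction. With DESeq2's size factors or upper quartile scaling in place of TMM, the median over all genes moved from −0.09 to 0.03 or 0.07, that of the 35 genes to −1.05 or −1.01, and 34 stayed lower. The split of all called genes moved with it, from 46 lower and 89 higher to 38 and 126 or 33 and 130.

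Depth and some markers of other cell types differed along with these values. With hnRNPU hairpin 1 the 35 genes had 25 to 2222 counts each, 21 of them under 100, and with hairpin 2 they had 52 to 5754 counts. The 10 granulocyte markers summed to 1623 CPM with the hnRNPU control hairpin and to 9290 and 3454 CPM with hairpins 1 and 2. Of 9 tested, 2 rose, Ltf and Ngp (edgeR adjusted p = 0.0136 and 0.0151). S100a8, S100a9 and Camp had log2 fold changes of 2.14, 2.28 and 2.07, none past the threshold. Mpo, Elane, Prtn3 and Ctsg hardly differed, at 0.37, 0.12, 0.25 and 0.23, so the list did not move as one. Ly6g, a defining neutrophil marker, had at most 2 counts in any library and 1 in the hnRNPU control, too few to compare. Of the 10 macrophage markers, which summed to 238 CPM with the control and to 1550 and 475 CPM with the hairpins, Lyz2 alone, a gene that granulocytes also express, gave 216, 1472 and 443 CPM. Of these 10, 8 lay higher and 1 lower in the hnRNPU knockdown (median log2 fold change 1.30), with none past the threshold in edgeR. Adgre1 read 4.64 CPM with the control and 17.1 and 11.4 CPM with the hairpins, and Cd68 read 3.15, 12.4 and 3.55 CPM. C1qa was at 0 in all 3 libraries and C1qc at 0 in both hairpin libraries. In the Bloodlinc libraries the granulocyte markers summed to 101 CPM with the control and 41.6 and 53.3 CPM with the hairpins. The part of depth and of these cell types in the mitotic genes' values was not tested.

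**Figure D3:**
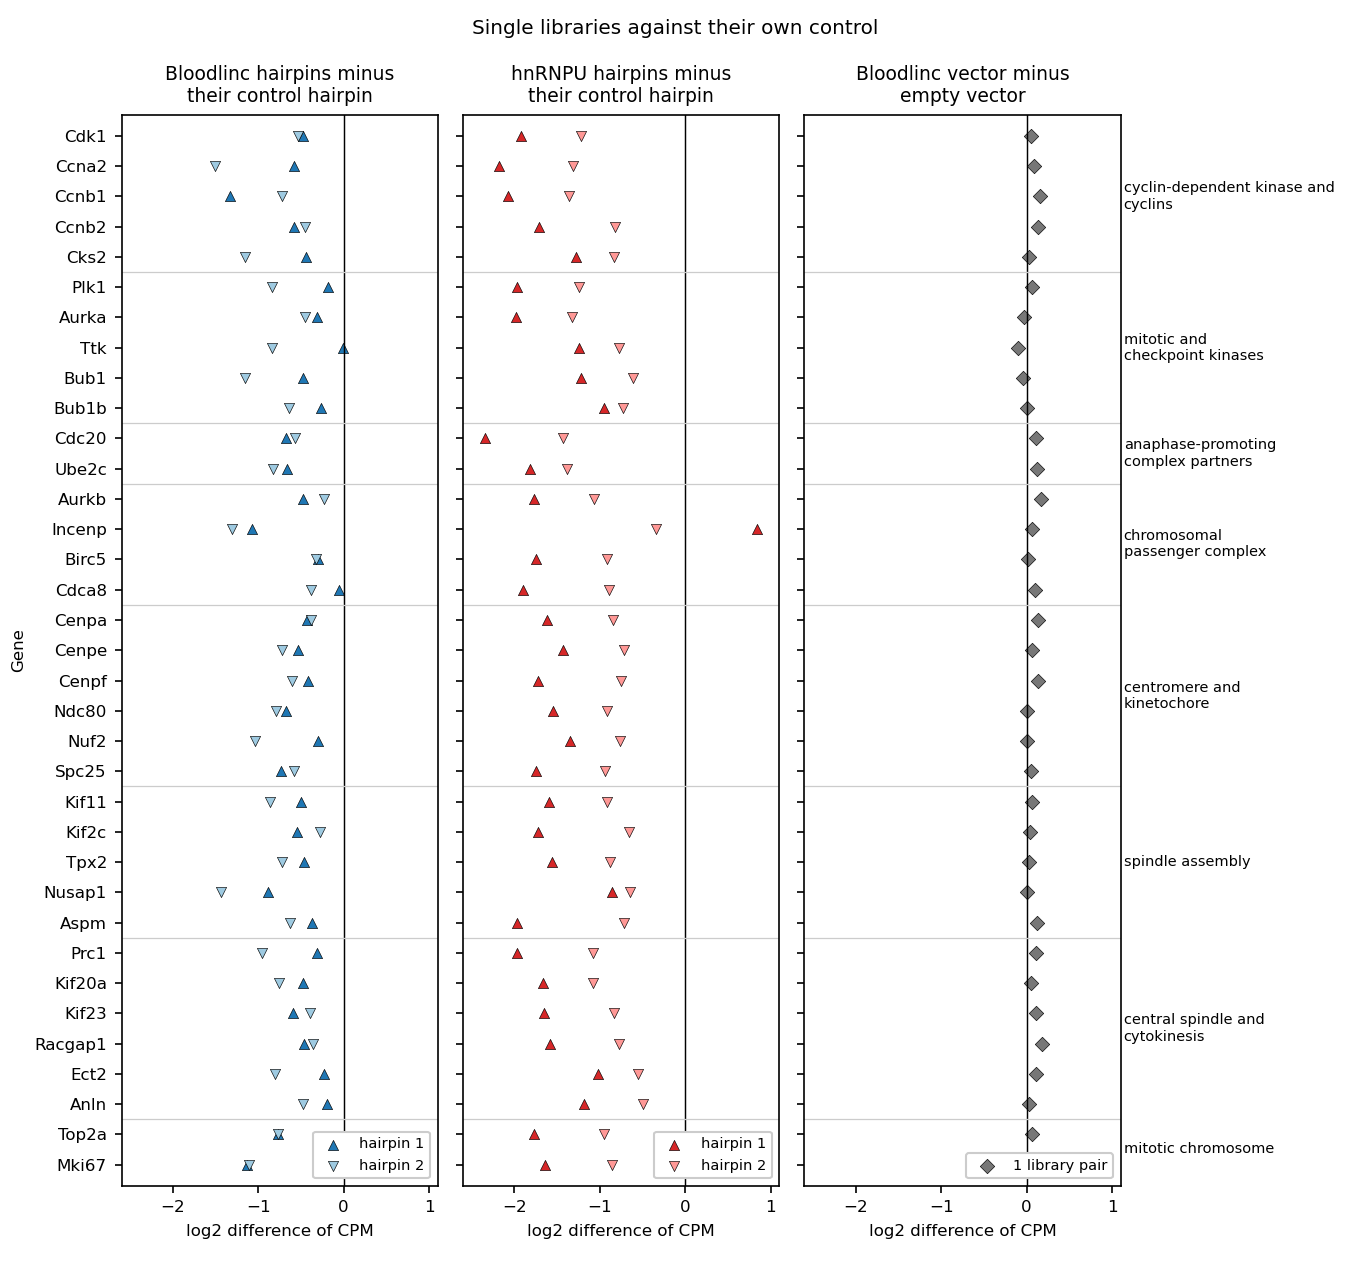
log2 difference of CPM between single libraries and their own control for each of the 35 genes, for Bloodlinc hairpins (left), hnRNPU hairpins (middle) and the vector pair (right). Both Bloodlinc hairpins lie left of 0 for all 35 genes, both hnRNPU hairpins for 34, and the vector pair lies between −0.10 and 0.19.

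The cyclin-dependent kinase group holds Cdk1, the kinase that starts mitosis, its partner cyclins Ccna2, Ccnb1 and Ccnb2, and Cks2, a small subunit that binds the kinase. Ccna2 (ENSMUSG00000027715, chr3:36564865-36572150 on GRCm38, minus strand) read 1087 CPM with the Bloodlinc control hairpin and 725 and 385 CPM with Bloodlinc hairpins 1 and 2. It read 805 CPM with the hnRNPU control hairpin and 178 and 325 CPM with hnRNPU hairpins 1 and 2, and 344 and 366 CPM with the empty and Bloodlinc vectors. Every hairpin library lay below its own control, and the 2 vector libraries lay among the hairpin libraries. Its log2 fold change was −0.97 ± 0.59 (SE) in the Bloodlinc knockdown and −1.68 ± 0.59 in the hnRNPU knockdown (edgeR adjusted p = 1 and 0.201). Cdk1 read 390 CPM with the Bloodlinc control hairpin against 279 and 270 CPM with its hairpins, and 170 CPM with the hnRNPU control hairpin against 44.9 and 72.9 CPM. The Bloodlinc hairpin libraries thus held more Cdk1 RNA than the hnRNPU control library. Ccnb1, the main mitotic cyclin, had log2 fold changes of −1.0 ± 0.56 and −1.67 ± 0.56 in the same order, neither past the threshold. Cks2 was the one gene of the 35 with less RNA in the Bloodlinc control library than with the empty vector. It read 43.5 CPM with the Bloodlinc control hairpin, 75.7 CPM with the empty vector and 106 CPM with the hnRNPU control hairpin. Over the 5 genes the medians were −0.75 and −1.52, and all 5 had an unadjusted p under 0.05 in the hnRNPU knockdown.

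The mitotic and checkpoint kinases comprise Plk1 and Aurka, which act on centrosomes and spindle poles, and Ttk, Bub1 and Bub1b, which hold anaphase until all kinetochores are attached. Bub1b (ENSMUSG00000040084, chr2:118598211-118641591, plus strand) read 196 CPM with the Bloodlinc control hairpin and 164 and 126 CPM with the hairpins. It read 160 CPM with the hnRNPU control and 82.7 and 96.5 CPM with the hairpins, and 104 CPM with either vector. It varied least of the 35 genes between libraries. Ttk (ENSMUSG00000038379, chr9:83834689-83872389, plus strand) read 68.4 CPM with the Bloodlinc control and 68.0 and 38.3 CPM with the hairpins, so only hairpin 2 stood apart from the control. It read 35 CPM with the hnRNPU control, 14.8 and 20.5 CPM with the hairpins, and 29.4 and 27.5 CPM with the empty and Bloodlinc vectors. Bub1 (ENSMUSG00000027379, chr2:127801122-127831865, minus strand) read 132, 94.9 and 59.2 CPM with the Bloodlinc control and hairpins 1 and 2, and 124, 53.2 and 81.5 CPM in the hnRNPU set. With the empty and Bloodlinc vectors it read 80.4 and 78.2 CPM. In the hnRNPU knockdown Plk1 and Aurka, at log2 fold changes of −1.55 ± 0.53 and −1.61 ± 0.53, lay further from 0 than Ttk, Bub1 and Bub1b, which lay between −0.98 and −0.83. No kinase passed (smallest edgeR adjusted p = 0.153, for Aurka), and the group medians were −0.44 and −0.98.

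Cdc20 activates the anaphase-promoting complex and Ube2c is the ubiquitin-conjugating enzyme that works with it. Cdc20 (ENSMUSG00000006398, chr4:118432901-118437352, minus strand), whose promoter is printed above, read 93.2 CPM with the Bloodlinc control hairpin and 58.7 and 62.9 CPM with the hairpins. It read 144 CPM with the hnRNPU control and 28.4 and 53.6 CPM with the hairpins, and 71.8 and 77.2 CPM with the empty and Bloodlinc vectors. All 4 hairpin libraries lay below all 3 control libraries. Its log2 fold change of −1.81 ± 0.52 was the lowest of the 35 in the hnRNPU knockdown, and in the Bloodlinc knockdown it was −0.62 ± 0.52 (edgeR adjusted p = 0.0638 and 1). Ube2c (ENSMUSG00000001403, chr2:164769898-164778822, plus strand) read 184, 117 and 104 CPM with the Bloodlinc control and hairpins 1 and 2, and 387, 110 and 149 CPM in the hnRNPU set. The vectors gave 76.4 and 82.8 CPM. Its hnRNPU control library was thus the highest of the 8, and the hnRNPU log2 fold change was −1.58 ± 0.54 (edgeR adjusted p = 0.183).

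The chromosomal passenger complex joins the kinase Aurkb to the scaffold Incenp through Birc5 (survivin) and Cdca8 (borealin), and corrects faulty attachments of chromosomes before it moves to the midzone for cytokinesis. Incenp (ENSMUSG00000024660, chr19:9872296-9899551, minus strand) read 263 CPM with the Bloodlinc control hairpin and 125 and 107 CPM with the hairpins, the 2 lowest levels of the 8. It read 285 CPM with the hnRNPU control, 512 CPM with hnRNPU hairpin 1 and 226 CPM with hairpin 2, and 164 and 173 CPM with the empty and Bloodlinc vectors. The 2 hnRNPU hairpins thus lay on opposite sides of their control, and hairpin 1 held the highest level of all. Its log2 fold change was −1.19 ± 0.56 in the Bloodlinc knockdown and 0.37 ± 0.58 in the hnRNPU knockdown (edgeR adjusted p = 1 and 0.884), and −0.34 without hnRNPU hairpin 1. Birc5 (ENSMUSG00000017716, chr11:117849251-117855743, plus strand) read 176, 143 and 141 CPM with the Bloodlinc control and hairpins, and 141, 42 and 75.2 CPM in the hnRNPU set. With the vectors it read 73.3 and 74.0 CPM. Cdca8 (ENSMUSG00000028873, chr4:124918465-124939311, minus strand) read 67.9, 65.0 and 52.2 CPM, then 117, 31.3 and 63.4 CPM, in the same order, and 54.4 and 58.4 CPM with the vectors. These 2 genes had the smallest Bloodlinc log2 fold changes of the 35, at −0.31 ± 0.54 and −0.21 ± 0.53. In the hnRNPU knockdown Aurkb, Birc5 and Cdca8 had log2 fold changes of −1.37 ± 0.53, −1.26 ± 0.54 and −1.30 ± 0.53, so the scaffold differed in sign from its partners in this comparison, with none of the 4 past the threshold.

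**Figure D4:**
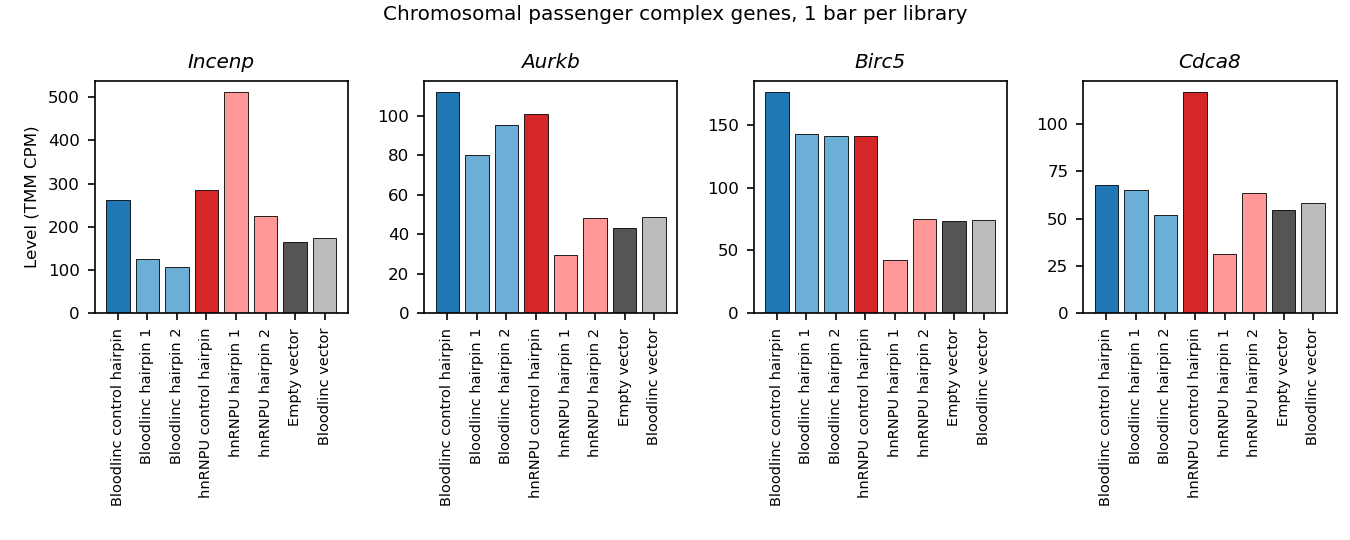
Level of the 4 chromosomal passenger complex genes, in TMM CPM with 1 bar per library and an axis of its own for each gene. Incenp reached 512 CPM with hnRNPU hairpin 1, where Aurkb, Birc5 and Cdca8 read 29.6, 42 and 31.3 CPM, their lowest levels.

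Of the 6 centromere and kinetochore genes, Cenpa encodes the histone variant that marks the centromere, Cenpe and Cenpf act at the outer kinetochore, and Ndc80, Nuf2 and Spc25 are subunits of the complex that grips microtubules. Cenpe (ENSMUSG00000045328, chr3:135212537-135273611, plus strand), a kinetochore motor, read 481 CPM with the Bloodlinc control and 332 and 292 CPM with the hairpins. It read 280 CPM with the hnRNPU control and 103 and 169 CPM with the hairpins, and 181 and 190 CPM with the empty and Bloodlinc vectors. The Bloodlinc hairpin libraries lay above the hnRNPU control. The 3 Ndc80 complex genes differed strongly between control libraries. Spc25 read 240, 89.4 and 33.2 CPM with the Bloodlinc control, the hnRNPU control and the empty vector, and Nuf2 read 279, 89.1 and 53.0 CPM. The log2 fold changes of the 6 genes lay between −0.73 and −0.41 in the Bloodlinc knockdown and between −1.28 and −1.02 in the hnRNPU knockdown. The smallest edgeR adjusted p was 0.360 in the latter, for Spc25.

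The spindle assembly genes comprise the motor Kif11, which pushes the poles apart, the microtubule depolymerase Kif2c, and the spindle proteins Tpx2, Nusap1 and Aspm. Kif11 (ENSMUSG00000012443, chr19:37376403-37421859, plus strand) read 1240 CPM with the Bloodlinc control and 877 and 682 CPM with the hairpins. It read 372 CPM with the hnRNPU control, 124 and 198 CPM with the hairpins, and 201 and 211 CPM with the vectors. All 3 libraries of the Bloodlinc set lay above all others. Nusap1 (ENSMUSG00000027306, chr2:119618298-119651244, plus strand) read 640 CPM with the Bloodlinc control and 346 and 238 CPM with the hairpins, against 279 CPM with the hnRNPU control, 154 and 178 CPM with its hairpins and 118 and 119 CPM with the vectors. It was one of 2 genes in the set with a fold change further from 0 in the Bloodlinc knockdown than in the hnRNPU knockdown, at −1.13 ± 0.56 and −0.75 ± 0.57, and the difference was not called (0.38 ± 0.82). The other was Incenp. Aspm and Kif2c, along with Incenp and Cdca8, differed by at least 1 log2 unit between the 2 hnRNPU hairpins, with the lower level at hairpin 1 for all but Incenp. No spindle gene passed in either knockdown.

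Central spindle and cytokinesis genes act last. Prc1 bundles the midzone microtubules, Kif20a and Kif23 are midzone motors, Racgap1 and Ect2 direct RhoA to the cleavage site, and Anln scaffolds the contractile ring. Prc1 (ENSMUSG00000038943, chr7:80294450-80316259, plus strand) read 648 CPM with the Bloodlinc control and 522 and 332 CPM with the hairpins. It read 327 CPM with the hnRNPU control, 83.3 and 155 CPM with the hairpins, and 121 and 131 CPM with the vectors. Its hnRNPU log2 fold change of −1.45 ± 0.57 was the lowest of this group, with an edgeR adjusted p of 0.307. Racgap1 (ENSMUSG00000023015, chr15:99620496-99651656, minus strand) read 349, 255 and 273 CPM in the Bloodlinc set, 142, 47.3 and 83.1 CPM in the hnRNPU set, and 51.3 and 58.1 CPM with the vectors. The RhoA regulator Ect2 and the ring scaffold Anln stood nearer to 0 in the hnRNPU knockdown, at −0.76 ± 0.53 and −0.79 ± 0.54. The group medians were −0.49 and −1.15, and none of the 6 genes passed.

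Top2a untangles sister chromatids, and the product of Mki67 covers the surface of mitotic chromosomes. Mki67 (ENSMUSG00000031004, chr7:135689784-135716361, minus strand) read 4031 CPM with the Bloodlinc control and 1837 and 1862 CPM with the hairpins, a close pair (1850 ± 17.2, SD, n = 2). It read 4101 CPM with the hnRNPU control and 1313 and 2267 CPM with the hairpins, and 1566 and 1787 CPM with the empty and Bloodlinc vectors. The 2 hairpin controls differed by 0.02 on the log2 scale for this gene, so both Bloodlinc hairpins lay below either of them, but the empty vector library lay below both Bloodlinc hairpins. Its log2 fold changes were −1.12 ± 0.65 and −1.20 ± 0.65 (edgeR adjusted p = 1 and 0.555). Top2a read 2947 CPM with the Bloodlinc control and 1729 and 1733 CPM with the hairpins, but 1322 CPM with the hnRNPU control against 388 and 683 CPM.

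The difference between the 2 knockdown effects was tested in the same fit, which shares no control library between them. The effect lay lower in the hnRNPU knockdown for 33 of the 35 genes, with a median difference of −0.67 against −0.30 over all genes. It also lay lower for 9483 of all 15355 genes. None of the 35 passed in edgeR, DESeq2 or limma-voom, and 0 had an unadjusted p under 0.05 in edgeR. Among all genes 0.0195% were called lower and 0.306% higher in this contrast. The largest difference was that of Incenp, at 1.55 ± 0.82 (edgeR adjusted p = 1). With the 2 hairpin control libraries exchanged, 13 of the 35 were called (12 lower, Cks2 higher) and the median was −1.58, against 19.7% of all genes called. Without hnRNPU hairpin 1 the median was −0.33 and without hairpin 2 it was −1.08, with 0 called in both.

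Bloodlinc overexpression left the 35 genes within a narrow band of the empty vector library. The log2 difference ranged from −0.10 (Ttk) to 0.19 (Mki67), with a median of 0.07 against 0.01 over all genes. With 1 library per arm there is no replicate check and no test. None of the 35 differed by 1 log2 unit or more, a size reached by 1.38% of all genes downward and 0.371% upward. The vector library lay below the empty vector for 3 genes, Aurka, Ttk and Bub1, against 48.6% of all genes. The 95% counting interval of the difference (exact binomial, conditional on the summed counts) lay above 0 for 19 genes and held 0 for 16, and it covers counting error only. For Mki67 it ran from 0.18 to 0.21, for Racgap1, at a difference of 0.18, from 0.10 to 0.26, for Ttk from −0.21 to 0.02, and for Bub1, at −0.04, from −0.11 to 0.03.

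The control libraries also differed from each other. The hnRNPU control lay below the Bloodlinc control with a median log2 difference of −0.42 over the 35 genes, against 0.08 over all genes. The empty vector library lay below the Bloodlinc control by a median of −1.37 and below the hnRNPU control by −1.06, against 0.21 and 0.03 over all genes. It lay below the hnRNPU control for all 35 genes and below the Bloodlinc control for 34, with Cks2 the exception. Both hnRNPU hairpins lay below all 3 controls for 14 genes, and hairpin 1 did for 31. Each control group is 1 library, so the experiment a library belongs to and its level of these genes cannot be told apart.

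**Figure D5:**
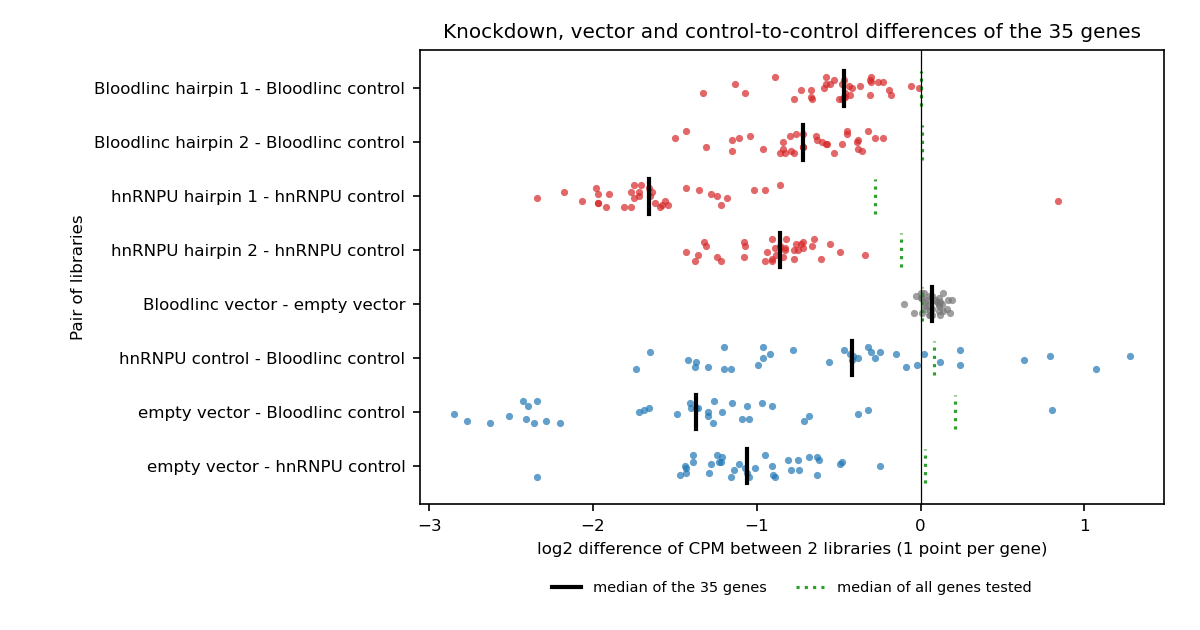
log2 difference of CPM between pairs of libraries, with 1 point per gene, the median of the 35 genes (black line) and of all genes tested (green dotted line). The differences between controls (blue) reach medians of −1.37 and −1.06, between those of hnRNPU hairpin 1 (−1.66) and hairpin 2 (−0.86, red), while the vector pair (grey) stays near 0.

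Other genes of mitosis, listed apart from the 35, mostly lay lower too. Of 149 tested, 127 lay lower in the Bloodlinc knockdown (median −0.38) and 132 in the hnRNPU knockdown (median −0.85). Of all 15355 genes, 6850 and 8197 lay lower. None of the 149 passed in edgeR, DESeq2 or limma-voom. In edgeR 3 of them lower and 1 higher, then 43 lower and 2 higher, had an unadjusted p under 0.05. Over all genes it was 194 lower and 419 higher, then 746 lower and 772 higher. The condensin and cohesin genes, which shape and join chromatids, lay lower for 17 of 17 in both knockdowns, with Smc2 at −1.14 ± 0.58 and −1.23 ± 0.58. Nek2, a centrosome kinase, had the largest hnRNPU fold change, at −1.79 ± 0.53 (edgeR adjusted p = 0.0826). It read 105 CPM with the hnRNPU control and 20.1 and 40.2 CPM with the hairpins. Kif18b, a motor of microtubule ends, had −1.64 ± 0.52 (edgeR adjusted p = 0.127). In the Bloodlinc knockdown the kinase gene Melk had −1.10 ± 0.52 and Fbxo5, an inhibitor of the anaphase-promoting complex, −0.96 ± 0.53, and in the hnRNPU knockdown the centromere gene Cenpm had −1.59 ± 0.64 and Cdca5, which protects cohesin, −1.50 ± 0.54.

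A group of 21 further cytokinesis genes, mostly of abscission, septins and actomyosin that also act outside division, did not share this pattern, with medians of 0.01 and 0.05 and 10 and 9 of them lower. Sept9, a septin, read 0.615 CPM with the Bloodlinc control and 1.27 and 5.15 CPM with its hairpins, and 17.3, 56.2 and 32.7 CPM in the hnRNPU set. Pttg1, the gene of securin, which guards the cohesin-cutting enzyme, lay higher with hnRNPU hairpins, at 60.3 and 31.1 CPM against 14.6 CPM with the control. Its log2 fold change of 1.64 ± 0.61 did not pass (edgeR adjusted p = 0.262).

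Genes of the preceding cell cycle step were read for comparison. Of 31 genes of the G1-S transition and replication licensing, 28 lay lower in the Bloodlinc knockdown (median −0.39) and 29 in the hnRNPU knockdown (median −1.28). In the latter, 20 lay lower at an unadjusted p under 0.05 in edgeR, and none of the 31 passed in edgeR, DESeq2 or limma-voom. Of all 15355 genes, 6850 and 8197 lay lower, with 746 lower at that p in the hnRNPU knockdown. With Bloodlinc hairpin 1, 17 of the 31 lay lower and 14 higher (median −0.11). With hairpin 2, 28 lay lower (median −0.76), and 16 lay lower with both. Mcm5, a subunit of the replicative helicase, read 460 CPM with the hnRNPU control and 123 and 173 CPM with the hairpins. Cdk6, a G1 kinase, read 17.9 CPM with the Bloodlinc control and 71.7 and 37.7 CPM with the hairpins, against the direction of its list (1.61 ± 0.58, edgeR adjusted p = 0.672). Of 13 genes of cell cycle exit, 9 lay higher in the hnRNPU knockdown (median 0.70) and 8 lower in the Bloodlinc knockdown (median −0.22), again with none passing in the 3 tools and with 3 (hnRNPU, 1 of them lower) and 2 (Bloodlinc, 1 of them lower) at an unadjusted p under 0.05 in edgeR. With hnRNPU hairpin 1, 11 of the 13 lay higher (median 1.19), but with hairpin 2, 6 lay higher and 7 lower (median −0.02). Trp53inp1, a p53 target, read 295 CPM with the hnRNPU control and 1403 and 463 CPM with the hairpins (log2 fold change 1.66 ± 0.65, edgeR adjusted p = 0.307). Mxd4, which opposes MYC, read 4.92 CPM with the Bloodlinc control and 10.8 and 34.9 CPM with the hairpins (2.21 ± 0.70, edgeR adjusted p = 0.389).

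Several of the 35 genes overlap a gene on the other strand, and the strand setting of the authors' counting is not given in the sources used here. Ccna2 overlaps Exosc9 by 863 bases, Cdc20 overlaps Elovl1 by 53 bases, Kif20a overlaps Cdc23 by 2327 bases, Nusap1 overlaps Oip5 by 172 bases and Cdca8 overlaps 9930104L06Rik by 2264 bases. The whole span of Prc1, 21810 bases, lies within that of Rccd1, and Ube2c overlaps Tnnc2 by 1662 bases. The partners Rccd1 and Tnnc2 had at most 275 and 4 counts in any library. Exosc9, Elovl1, Cdc23, Oip5 and 9930104L06Rik reached 3014, 2872, 2893, 1600 and 531 counts in their highest library. All these overlaps are of gene spans with introns, and the overlap of exons was not measured. Without the strand setting, reads from any exon bases shared by these genes and their partners cannot be told apart.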

How the data were processed

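The submitters' processing notes name TopHat2 2.0.11, HTSeq and the build mm9 for these 8 strand-specific libraries. The HTSeq version, annotation and strand setting are not given in the sources used here. The authors deposited raw counts per Ensembl gene ID, with 5 summary entries that were left out of library sizes. GENCODE M21 (GRCm38) supplied symbols for 87.4% of IDs, exon lengths and positions. Promoter windows came from RefSeq (GRCm38.p6).

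All 8 libraries, in 6 groups, entered a single model in edgeR 4.0.16 (R 4.3.3), with TMM scaling, filterByExpr (15355 genes tested), quasi-likelihood tests and Benjamini-Hochberg adjustment over all genes at 0.05. The hairpin pairs gave 2 residual degrees of freedom, and the lone libraries of the other groups were taken to have the same spread (common dispersion 0.145, prior degrees of freedom 397). The SE given with an edgeR log2 fold change is its absolute size divided by the square root of the F statistic. It therefore carries the same shared spread as the test. Single-library log2 differences used a prior count of 2. The fit was tested on simulated counts. Alternatives included DESeq2 1.42.0, limma-voom (limma 3.58.1), other scalings, filters, controls, thinning and left-out hairpins.

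The 35 genes, the lists and the naming rule were chosen with earlier results of these data known. Levels in all libraries are given for the most abundant gene of each role and for the 2 lowest and 2 highest genes in each knockdown and in the vector pair. Further genes, such as Cdk1, Cks2, Top2a, Spc25 and Nuf2, were added after their values were seen. One list entry, Cdkn2d, was unmatched.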

Additional observations from a re-analysis of the deposited data

How the results depend on the processing

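No paired analysis was possible because each control group is 1 library without a hairpin number, so knockdown and control share fewer than 2 replicate numbers. With the other target's control hairpin, the Bloodlinc knockdown called 2 of the 35 genes (Cks2 and Ube2c, lower), had 19 lower and a median of −0.08, the hnRNPU knockdown called 21, all lower, and their difference called 13 (12 lower, Cks2 higher) with a median of −1.58. Of all genes, 6.79%, 15.2% and 19.7% were then called. In that setting the Bloodlinc log2 fold changes of Birc5 (0.01), Cenpe (0.16), Kif11 (1.07), Nusap1 (0.07), Prc1 (0.38), Racgap1 (0.89) and Ttk (0.60) changed sign. With the 3 controls pooled, the Bloodlinc knockdown had 20 lower and a median of −0.02, and Birc5 (0.13), Kif11 (0.37), Prc1 (0.22), Racgap1 (0.54) and Ttk (0.26) changed sign. Against the Bloodlinc or the hnRNPU control hairpin library, the Bloodlinc vector library had 25 or 16 genes at 1 log2 unit or more and medians of −1.31 or −0.97, Mki67 read −1.17 or −1.20 and Racgap1 −2.59 or −1.29. The control libraries themselves differ, as the report shows, and the cause was not tested.

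Leaving out 1 hairpin library at a time called 0 of the 35 genes, with medians from −0.70 to −0.47 in the Bloodlinc knockdown, −1.67 to −0.86 in the hnRNPU knockdown and −1.08 to −0.33 in their difference. Without hnRNPU hairpin 1, Incenp read −0.34 in the hnRNPU knockdown, and without hairpin 2 it read 0.84. Of all genes, the Bloodlinc knockdown called 19 with edgeR, 5 with DESeq2 and 0 with limma-voom or after thinning, and 0 to 63 when a hairpin library was left out. The hnRNPU knockdown called 135 with edgeR, 100 with DESeq2, 9 with limma-voom, 8 at 5 CPM or more in 2 libraries and 0 after thinning, and 7 to 121 without a hairpin library. Their difference called 50, 16, 3, 5 and 0 in the same order. The Bloodlinc knockdown also called 0 of all genes at 5 CPM or more in 2 libraries, in its fit of 3 libraries, without both hnRNPU hairpin libraries and with pooled controls. With pooled controls the hnRNPU knockdown called 7 and the difference 444. The other tools, scalings and filters, thinning, the fits of 3 libraries (in which the difference was not run) and, chosen after seeing the data, the fit without both hnRNPU hairpin libraries called 0 of the 35 and kept the sign of each median. Within 100 bases before the start, the share of windows with a CHR was 31.2%, against 9.71% of all windows. The genes had 25 to 2222 counts with hnRNPU hairpin 1, which limits the precision of those values.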

Other observations

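Across these 35 genes, Spearman's rho between exon length and log2 fold change was 0.293 in the hnRNPU knockdown and 0.0541 in the Bloodlinc knockdown, against 0.148 and 0.102 across 14607 genes with a length. It was 0.182 with hnRNPU hairpin 1 and 0.383 with hairpin 2. The genes share their libraries and are not independent, so these weak correlations are descriptions only.

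Between-gene order also differed by hairpin in the Bloodlinc knockdown. Hairpin 2 lay below hairpin 1 for 24 of the 35 genes, but Ccnb1 read 241 CPM with hairpin 1 and 367 CPM with hairpin 2. Incenp and Mki67 were the 2 genes at a log2 difference of −1 or lower with both Bloodlinc hairpins.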
